A study of Canis lupus familiaris with 15 samples.

Results

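Markers of mesenchymal and stromal cells were followed across the canine mammary tumour cell lines of this series, namely the 6 genes VIM, ZEB1, FBLN2, DCN, EFEMP1 and CCDC80. They were taken by gene symbol, which gave 10 of the 7694 probes with a symbol and 6 of 5246 genes. VIM had 3 probes, ZEB1 and DCN had 2 each, and FBLN2, EFEMP1 and CCDC80 had 1 each. No filter on low values was applied, and all 6 genes had a value on every array. P114 came from an anaplastic carcinoma of the mammary gland, CMT-U229 from a benign mixed tumour and CMT-U335 from an osteosarcoma that arose in the gland. All were cultures near confluence with no treatment named in the labels, and each line is a single line standing for its tumour type. Each of 15 cDNA arrays carried RNA of a pair of lines in opposite dyes, with 5 arrays for each of the 3 pairs, so values are ratios between lines and not levels.

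Mesenchymal cells such as fibroblasts and osteoblasts build a collagen-rich matrix and lack the tight sheets of epithelium. Carcinoma cells can take on part of this state, which is called epithelial-mesenchymal transition, and canine mixed mammary tumours hold both epithelial and stromal elements. VIM encodes vimentin, the main intermediate filament protein of mesenchymal cells. ZEB1 is a zinc finger transcription factor that represses epithelial genes such as those of cell junctions. The other members are secreted: FBLN2 and EFEMP1 encode fibulins, DCN encodes the proteoglycan decorin, which coats collagen fibrils and binds growth factors, and CCDC80 encodes a protein associated with the extracellular matrix.

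The lines did not differ in one common direction for these genes. CCDC80, FBLN2 and ZEB1 were lower in both P114 and CMT-U229 than in CMT-U335, EFEMP1 was higher in CMT-U229 than in either other line, and DCN was lower there. The EFEMP1 calls, and that of DCN in P114 over CMT-U229, were lost when arrays that looked like dye swaps of the same RNA were averaged. Those of CCDC80, FBLN2 and ZEB1 against CMT-U335 held. CCDC80 showed the widest range, 10.3-fold lower in CMT-U229 than in CMT-U335. VIM, the most widely used marker of the set, missed the threshold in all 3 pairs. The label of mesenchymal markers thus covers genes that did not all rank the lines in the same order. Among called ratios, EFEMP1 alone ran against other members, in both pairs with CMT-U229. It had 1 probe, and those calls are among the ones lost on averaging.

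Each ratio below is the mean over 5 arrays on the log2 scale, with its standard error (SE) from limma. A gene was called when its adjusted p (Benjamini-Hochberg over all 5246 genes, two-sided) lay under 0.05. Which dye the submitters put on top is not given in the sources used here. It was taken to be Cy5, so directions are likely but not certain, and with Cy3 on top each sign would turn round. The log base was taken as 2. No spot intensities were at hand, so the signal behind each value is unknown and precision rests on the few arrays per pair. The titles number the arrays of a pair as replicates. The design text speaks of swapped dyes and biological replication without saying which arrays are which. P-values therefore measure the spread between arrays, part of which may be technical. In earlier results of these data some arrays of a pair looked like dye swaps of the same RNA. Averaging them leaves 3 values per pair, and the adjusted p of that version is given where it ends a call of a member. In RNA from whole cultures, fewer cells of a type and less RNA per cell cannot be told apart.

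**Figure D1:**
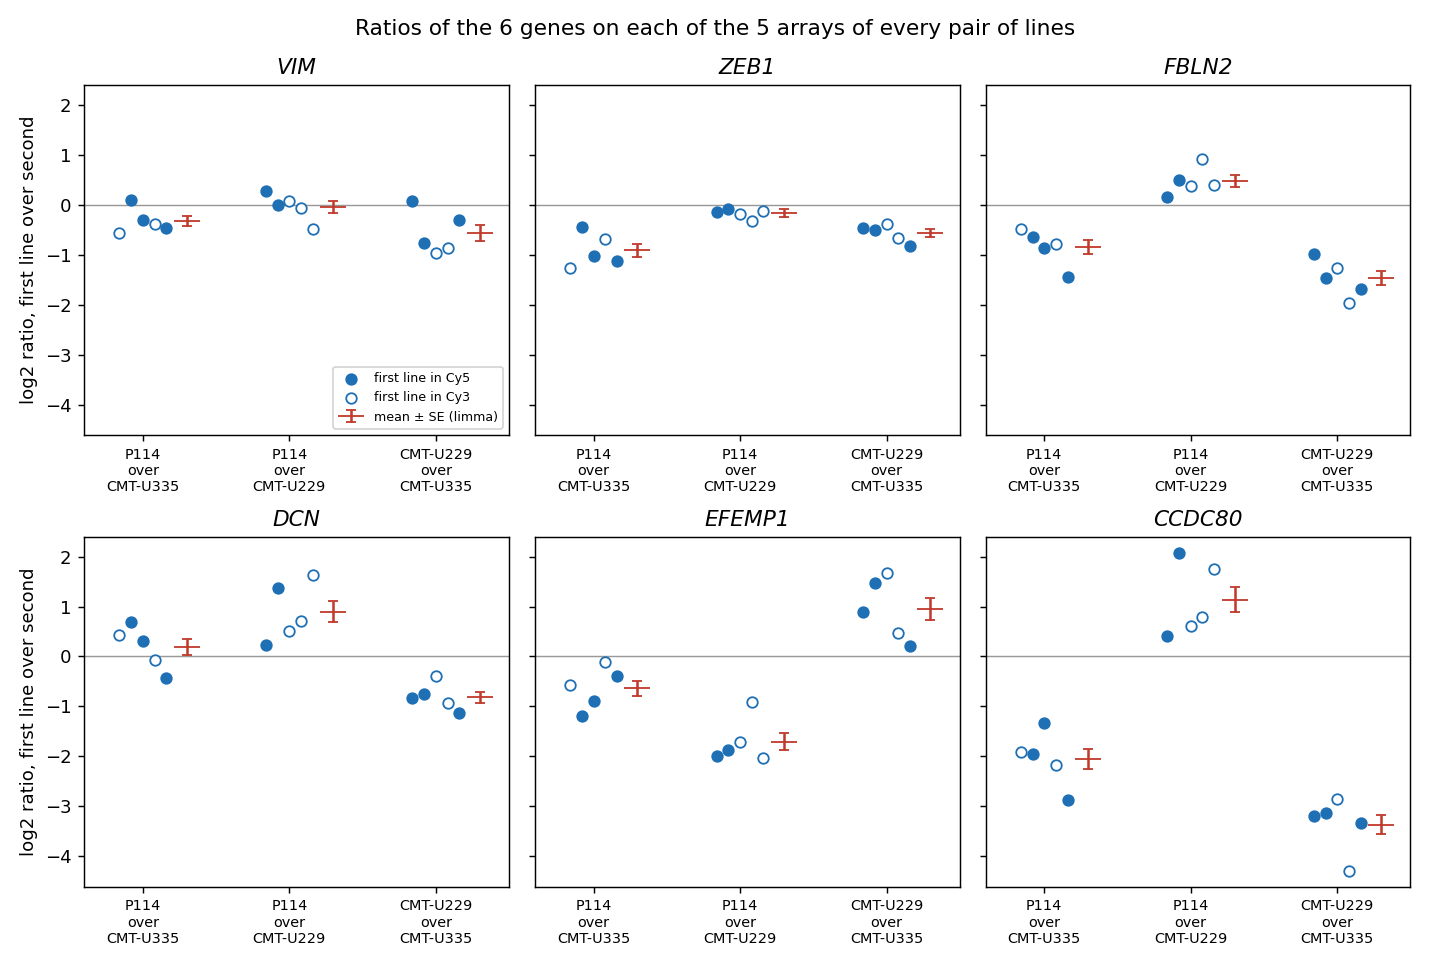
Log2 ratio (first line over second) of each gene on each of the 5 arrays of every pair of lines, with filled points where the first line carried Cy5 and open points where it carried Cy3; the red bar is the mean ± SE from limma. All 5 arrays of CCDC80 lie between -4.29 and -2.86 for CMT-U229 over CMT-U335, whereas VIM crosses 0 in every pair.

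ZEB1, the nuclear repressor of the set, was lower in both P114 and CMT-U229 than in CMT-U335. On the arrays of P114 over CMT-U335 its log2 ratio was -1.26, -0.44, -1.02, -0.68 and -1.13 in replicates 1 to 5. All 5 arrays lay below 0, with replicate 2 closest to it. The mean was -0.91 ± 0.13 SE (n = 5, limma, adjusted p = 0.00265), a 1.88-fold lower level in P114. For CMT-U229 over CMT-U335 the arrays gave -0.46, -0.50, -0.38, -0.66 and -0.82, again all below 0. Here the mean was -0.57 ± 0.08 SE (n = 5, limma, adjusted p = 0.00442), or 1.48-fold lower in CMT-U229. Between P114 and CMT-U229 the ratios were small, from -0.32 to -0.08, and the mean of -0.17 ± 0.07 SE (n = 5) was not called in limma (adjusted p = 0.275). The 95% interval of that mean ran from -0.34 to 0.01. Both ZEB1 probes were called by themselves in the pairs with CMT-U335, at -0.84 (probe 7913) and -0.98 (probe 14870) for P114 and at -0.54 and -0.59 for CMT-U229.

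Both ZEB1 calls held when the apparent dye swaps were averaged, with adjusted p = 0.0233 for P114 over CMT-U335 and 0.0423 for CMT-U229 over CMT-U335 in limma. Genes that work with ZEB1 or that it is known to repress were sparsely named on the array, with 6 measured of 23 listed. EPCAM, an epithelial adhesion molecule, was the one called in each pair: 3.55 ± 0.15 SE for P114 over CMT-U335, 1.80 ± 0.10 for P114 over CMT-U229 and 1.78 ± 0.14 for CMT-U229 over CMT-U335. The histone deacetylases HDAC1 and HDAC2, the demethylase KDM1A, the epithelial splicing factor ESRP2 and the polarity gene PATJ were not called in any pair. Limma called 22.3%, 7.30% and 17.3% of all genes in the same order of pairs. Over the 3 pairs the list's median ratio was 0.04, 0.03 and 0.09, against -0.02, -0.01 and -0.01 for all genes.

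VIM, the filament gene, showed ratios of -0.56, 0.09, -0.30, -0.39 and -0.47 on the arrays of P114 over CMT-U335. Replicate 2 stood above 0 and the other 4 below. The mean of -0.33 ± 0.11 SE (n = 5) missed the threshold in limma (adjusted p = 0.0663), with a 95% interval from -0.57 to -0.08. Without replicate 2 the mean was -0.43 and the gene was called (limma, adjusted p = 0.0176). For CMT-U229 over CMT-U335 the arrays read 0.07, -0.77, -0.97, -0.87 and -0.31, and replicate 1 alone lay above 0. That mean of -0.57 ± 0.16 SE (n = 5) also missed the threshold in limma (adjusted p = 0.0520). It was called without replicate 1, at -0.73 (limma, adjusted p = 0.0121), and with a dye term in the fit, at -0.63 (limma, adjusted p = 0.0266). Between P114 and CMT-U229 the arrays ran from -0.49 to 0.27, and the mean was -0.04 ± 0.11 SE (n = 5; limma, adjusted p = 0.925), with an interval from -0.31 to 0.23.

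VIM also had the largest dye effect of the set, a shift of 0.19 ± 0.07 SE towards Cy5 over all 15 arrays (limma, adjusted p = 0.0946). The shift was in view within pairs: for CMT-U229 over CMT-U335 the mean was -0.34 on the 3 arrays with CMT-U229 in Cy5 and -0.92 on the 2 with it in Cy3. For P114 over CMT-U335 the corresponding means were -0.23 and -0.47. The other 5 genes had dye effects between -0.18 (EFEMP1) and 0.09 (CCDC80), and none of the 6 was called, against 616 of 5246 genes (11.7%). At an unadjusted p under 0.05 VIM alone of the 6 was counted, where 25.1% of all genes were, and probe by probe none was called either. Among the 3 VIM probes, probe 18071 was called by itself in P114 over CMT-U335 (-0.47 ± 0.11 SE, n = 5; limma over all probes, adjusted p = 0.0390). Probes 2180 and 2355 stood at -0.29 and -0.22 in that pair and were not called.

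Among other intermediate filament genes and linkers, 6 of 18 listed were measured. KRT8 and KRT18, the keratins of simple epithelia, were higher in P114 than in CMT-U335 by 2.46 ± 0.20 and 3.48 ± 0.19 SE. DST, which encodes a linker between filaments and junctions, was lower in P114 at -0.86 ± 0.11 SE. CMT-U229 over CMT-U335 gave 2.56 ± 0.23 SE for KRT8 and 0.80 ± 0.07 for KRT18, with no gene of the list lower. P114 over CMT-U229 gave 2.41 ± 0.14 SE for KRT18 and -0.58 ± 0.08 for DST, and DST lost its call with the swaps averaged (limma, adjusted p = 0.0637). In that pair KRT8, at -0.31 ± 0.19, was not called. The muscle filament gene DES, SYNM and the lamin gene LMNA were not called in any pair. The list's medians were 0.05, -0.16 and -0.07 in P114 over CMT-U335, P114 over CMT-U229 and CMT-U229 over CMT-U335.

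The fibulin genes differed from each other in direction in both pairs with CMT-U229, whereas P114 had less of both than CMT-U335. FBLN2 was lower in both other lines than in CMT-U335, by 1.80-fold in P114 and by 2.78-fold in CMT-U229. On the arrays of P114 over CMT-U335 it read -0.48, -0.64, -0.87, -0.78 and -1.44 (mean -0.84 ± 0.14 SE, n = 5; limma, adjusted p = 0.00438). For CMT-U229 over CMT-U335 it read -0.98, -1.47, -1.27, -1.97 and -1.69 (mean -1.47 ± 0.14 SE, n = 5; limma, adjusted p = 0.000862). Every array of both pairs lay below 0, and replicates 5 and 4 in turn gave the lowest values. For P114 over CMT-U229 the arrays gave 0.16, 0.50, 0.38, 0.92 and 0.40, all above 0. The mean of 0.47 ± 0.11 SE (n = 5) narrowly missed the threshold in limma (adjusted p = 0.0532), and it was called in the fit of the 3 lines over all 15 arrays (0.53 ± 0.12 SE, adjusted p = 0.00316).

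EFEMP1 encodes fibulin-3 and was highest in CMT-U229 and lowest in P114, opposite in sign to FBLN2 in the pairs with CMT-U229. For P114 over CMT-U229 its arrays read -2, -1.88, -1.71, -0.91 and -2.03. Replicate 4 stood apart at the weak end and the other 4 lay within -2.03 to -1.71. The mean of -1.70 ± 0.17 SE (n = 5; limma, adjusted p = 0.00158) is a 3.26-fold lower level in P114, the 16th lowest ratio of 5246 genes. For CMT-U229 over CMT-U335 the arrays gave 0.90, 1.48, 1.67, 0.47 and 0.22, all above 0 with a wide spread. Their mean was 0.95 ± 0.22 SE (n = 5; limma, adjusted p = 0.0260), or 1.93-fold higher in CMT-U229. P114 over CMT-U335 read -0.57, -1.19, -0.90, -0.12 and -0.39, with a mean of -0.63 ± 0.15 SE (n = 5; limma, adjusted p = 0.0220).

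All 3 EFEMP1 calls were lost when the apparent dye swaps were averaged, although the means stayed near -1.57, 0.94 and -0.73. The adjusted p of that version was 0.0785 for P114 over CMT-U229, 0.0876 for CMT-U229 over CMT-U335 and 0.0563 for P114 over CMT-U335. The call for CMT-U229 over CMT-U335 was also lost without replicate 1 (0.96, limma, adjusted p = 0.0573), replicate 2 (0.82, adjusted p = 0.0897) or replicate 3 (0.77, adjusted p = 0.0695). That for P114 over CMT-U335 was lost without replicate 1 (-0.65, limma, adjusted p = 0.0532) or replicate 3 (-0.57, adjusted p = 0.0784). In P114 over CMT-U229 it held without any single array, from -1.90 to -1.62.

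Among other genes of fibulins and elastic fibres FBN1 alone was called. Of 20 listed, 7 were measured: FBLN1, EFEMP2 (fibulin-4), ELN (elastin), FBN1 (fibrillin-1), MFAP4, MFAP5 and EMILIN1. FBN1 was higher in P114 than in CMT-U229, at 0.65 ± 0.13 SE (n = 5; limma, adjusted p = 0.0247), a call lost with the swaps averaged (adjusted p = 0.144), with scale normalization (adjusted p = 0.0543) and without replicate 2 (0.68), 3 (0.69) or 5 (0.62). It was not called in the pairs with CMT-U335, at 0.38 ± 0.12 SE for P114 and -0.46 ± 0.17 for CMT-U229. The other 6 genes were not called in any pair, and their mean ratios lay between -0.16 and 0.12. In both pairs with CMT-U335 limma called 0 of the 7, with 1 of 7 at an unadjusted p under 0.05 and 0 with a dye term. The shares called over all genes were 22.3% in P114 over CMT-U335, 7.30% in P114 over CMT-U229 and 17.3% in CMT-U229 over CMT-U335. The list's medians were 0.00, 0.06 and -0.06 in P114 over CMT-U335, P114 over CMT-U229 and CMT-U229 over CMT-U335.

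**Figure D2:**
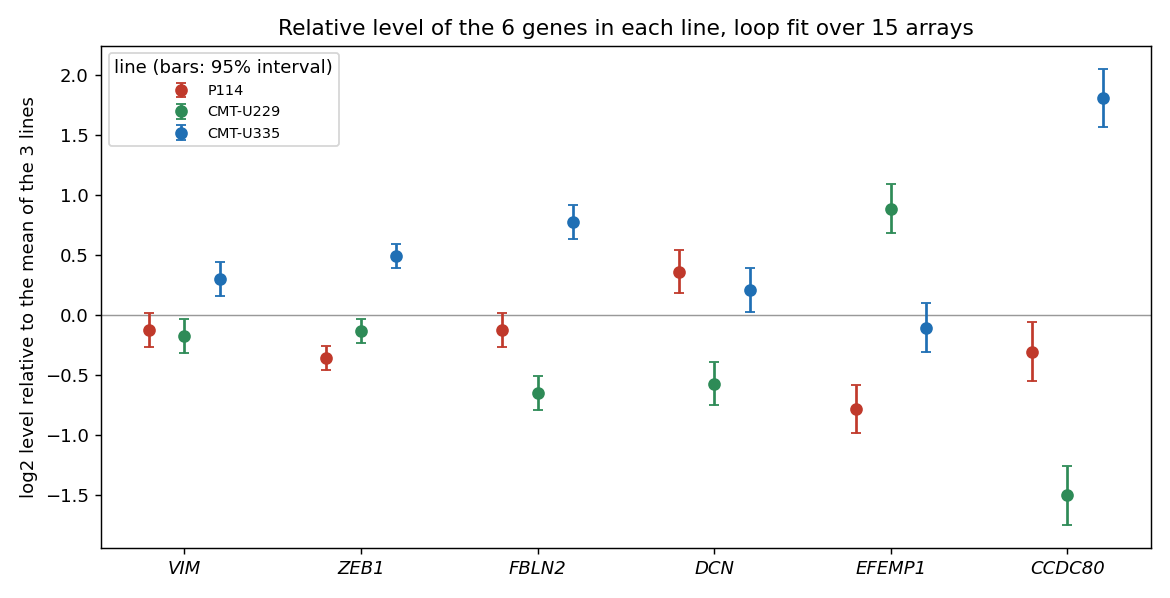
Level of each gene in each line on the log2 scale, relative to the mean of the 3 lines, from a fit of the loop over all 15 arrays; bars are 95% intervals. CMT-U335 lies highest for CCDC80 (1.80), FBLN2 (0.77), ZEB1 (0.49) and VIM (0.30), and CMT-U229 highest for EFEMP1 (0.89). For DCN, P114 (0.36) and CMT-U335 (0.21) overlap. The intervals take all 15 arrays as separate samples.

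DCN, the decorin gene, was lower in CMT-U229 than in either other line. For CMT-U229 over CMT-U335 its arrays gave -0.84, -0.76, -0.39, -0.94 and -1.14. All lay below 0, and the mean was -0.81 ± 0.11 SE (n = 5; limma, adjusted p = 0.00315), a 1.76-fold lower level. It held with the swaps averaged (adjusted p = 0.0233). For P114 over CMT-U229 the arrays read 0.24, 1.38, 0.52, 0.72 and 1.64, with a mean of 0.90 ± 0.21 SE (n = 5; limma, adjusted p = 0.0461), or 1.86-fold higher in P114. Replicates 2 and 5 stood above the other 3, and all 5 lay above 0. Between P114 and CMT-U335 the arrays ran on both sides of 0, at 0.43, 0.69, 0.31, -0.07 and -0.43. The mean there was 0.19 ± 0.16 SE (n = 5; limma, adjusted p = 0.483), with a 95% interval from -0.19 to 0.56.

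Both DCN probes were drawn towards the same side but differed in size. Probe 13503 gave -1.38 ± 0.16 SE for CMT-U229 over CMT-U335, whereas probe 16064 gave -0.24 ± 0.09 and was not called by itself (limma over all probes, adjusted p = 0.198). Their difference, probe 13503 minus probe 16064, lay between -1.54 and -0.77 on the 5 arrays of that pair. For P114 over CMT-U229 probe 13503 was above probe 16064 on all 5 arrays, by 0.01 to 1.56, with means of 1.26 ± 0.31 and 0.54 ± 0.14 SE. Neither probe was called by itself in that pair (limma over all probes, adjusted p = 0.0963 and 0.103). In P114 over CMT-U335 the probes stood at 0.17 and 0.20. The size of the decorin difference thus depends on the probe, and what sets the probes apart was not tested.

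**Figure D3:**
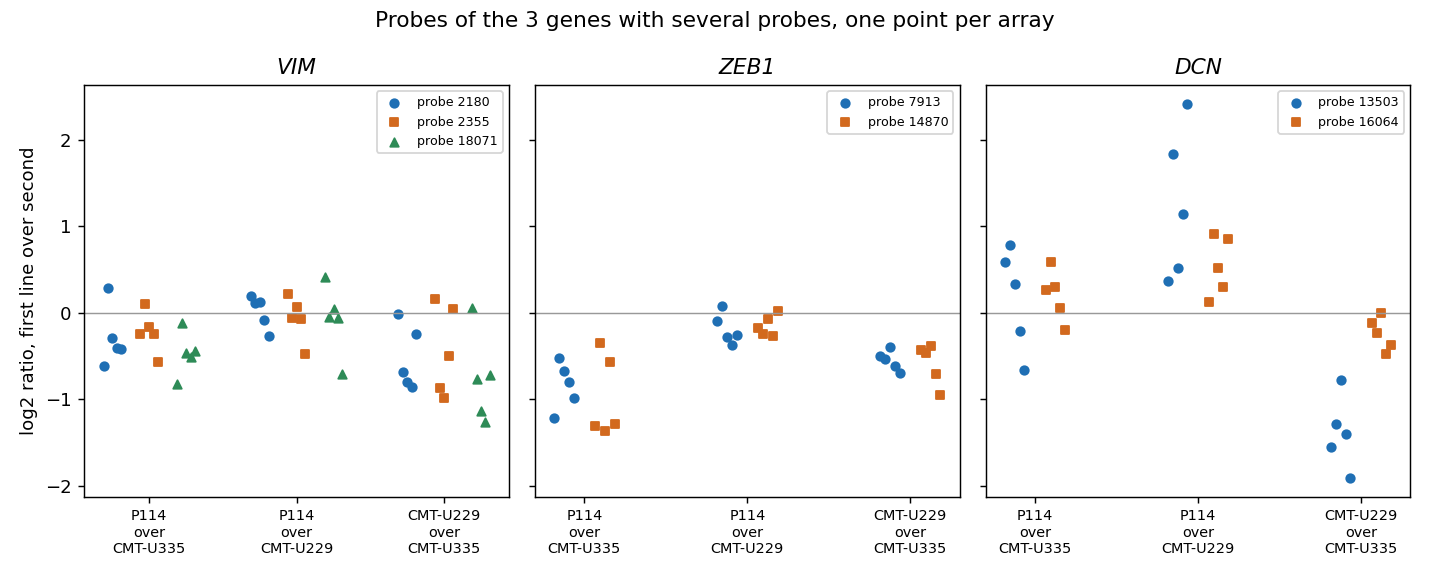
Log2 ratio (first line over second) of each probe of VIM, ZEB1 and DCN on each array, by pair of lines, with a colour and marker for each probe. The ZEB1 probes lie together, whereas the DCN probes separate for CMT-U229 over CMT-U335, where probe 13503 averages -1.38 and probe 16064 -0.24.

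CCDC80 had the largest ratios of the set. For CMT-U229 over CMT-U335 the arrays read -3.20, -3.14, -2.86, -4.29 and -3.33. The mean of -3.36 ± 0.19 SE (n = 5; limma, adjusted p = 0.000123) was the 3rd lowest of 5246 genes. P114 over CMT-U335 gave -1.92, -1.95, -1.34, -2.17 and -2.88, with a mean of -2.05 ± 0.19 SE (n = 5; limma, adjusted p = 0.000467). That is 4.14-fold lower in P114 and the 11th lowest ratio of the pair. Both calls held with the swaps averaged (adjusted p = 0.00380 and 0.00416). P114 over CMT-U229 read 0.42, 2.08, 0.62, 0.80 and 1.76, all above 0, with a mean of 1.14 ± 0.26 SE (n = 5; limma, adjusted p = 0.0429), or 2.20-fold higher in P114.

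The arrays of P114 over CMT-U229 fell into 2 sets for CCDC80 and DCN. Replicates 2 and 5, which carried opposite dyes and looked like swaps of the same RNA, gave CCDC80 at 2.08 and 1.76 and DCN at 1.38 and 1.64. On replicates 1, 3 and 4 CCDC80 stood between 0.42 and 0.80 and DCN between 0.24 and 0.72. The swaps had been found from genes that vary between arrays, which may include these, so the match is no independent evidence of them. FBLN2 did not split this way, at 0.50 and 0.40 on replicates 2 and 5. Without replicates 2 and 5, an alternative chosen after seeing the data, the means of CCDC80 and DCN were 0.61 and 0.49, and neither was called (limma, adjusted p = 0.0716 and 0.154).

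For CCDC80 in P114 over CMT-U229, leaving out any single array ended the call: 1.32 without replicate 1, 0.90 without 2, 1.27 without 3, 1.22 without 4 and 0.98 without 5 (limma, adjusted p from 0.0548 to 0.141). DCN lost it without replicate 2 (0.78), 3 (0.99), 4 (0.94) or 5 (0.71), and kept it without replicate 1. With the swaps averaged the adjusted p was 0.218 for CCDC80 and 0.213 for DCN, and with a dye term 0.0800 and 0.0918. Array weights also ended both calls (limma, adjusted p = 0.0595 for CCDC80 and 0.0729 for DCN). In CMT-U229 over CMT-U335, EFEMP1 split likewise: 1.48 and 1.67 on replicates 2 and 3, 0.47 and 0.22 on replicates 4 and 5, and 0.90 on replicate 1. Each of those couples also had opposite dyes. Without replicates 2 and 3 its mean was 0.53 (limma, adjusted p = 0.150), likewise an alternative chosen after seeing the data.

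**Figure D4:**
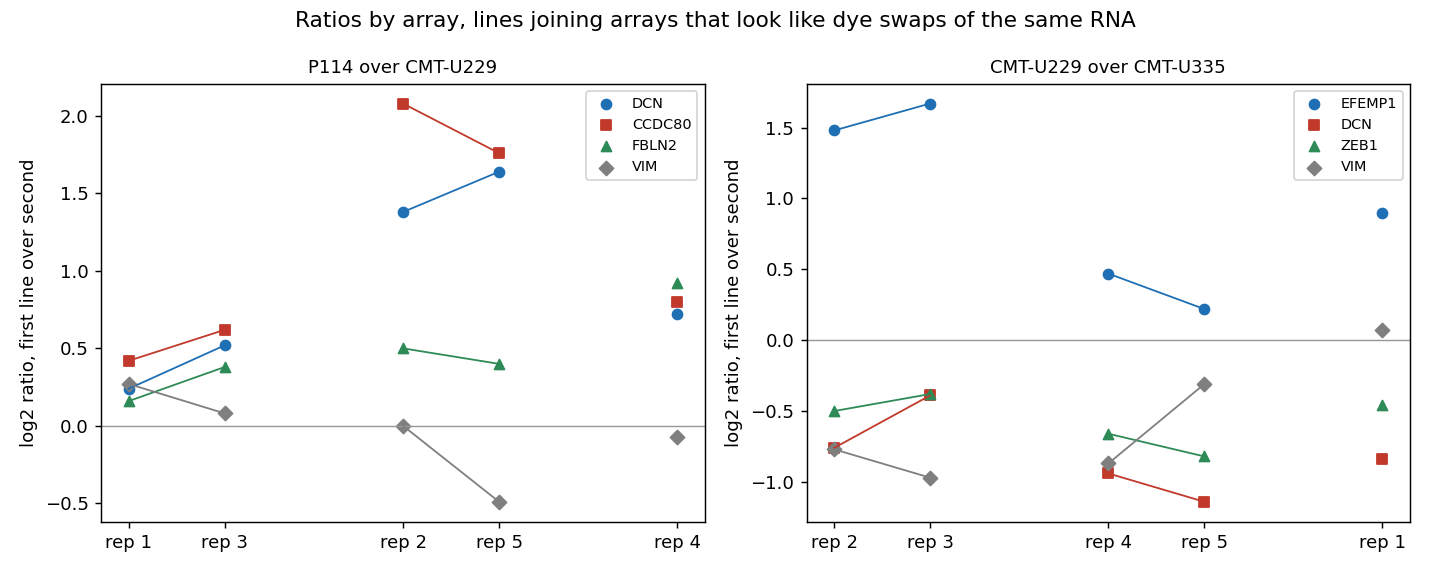
Log2 ratio (first line over second) by array for P114 over CMT-U229 (left) and CMT-U229 over CMT-U335 (right), with lines joining arrays that looked like dye swaps of the same RNA. CCDC80 (2.08 and 1.76) and DCN (1.38 and 1.64) are high together on replicates 2 and 5 on the left, and EFEMP1 is high on replicates 2 and 3 on the right (1.48 and 1.67).

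The proteoglycans related to decorin and the collagens it binds showed no common direction. Of 19 listed, 8 were measured. COL1A2, a chain of type I collagen, was lower than in CMT-U335 in both P114 (-1.39 ± 0.14 SE) and CMT-U229 (-3.39 ± 0.22), and higher in P114 than in CMT-U229 (2.07 ± 0.30). These ratios had the signs of those of CCDC80 in each pair. COL3A1, of type III collagen, was higher in P114 than in CMT-U335 (0.69 ± 0.11 SE) and CMT-U229 (0.77 ± 0.10). BGN, the biglycan gene and closest relative of decorin among the measured genes, was higher than in CMT-U335 in both P114 (0.69 ± 0.13 SE) and CMT-U229 (0.91 ± 0.08). BGN and DCN therefore ran in opposite directions for CMT-U229 over CMT-U335.

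In counts, 3 of these 8 genes (COL3A1, BGN and ECM2, the last at 0.34 ± 0.08 SE) were higher and 1 lower in P114 than in CMT-U335. Of all genes 7.89% were called higher and 14.4% lower in that pair. P114 over CMT-U229 had 2 higher and none lower, where 3.32% of all genes were higher and 3.98% lower. CMT-U229 over CMT-U335 had 1 higher and 1 lower, where 8.77% of all genes were higher and 8.58% lower. With the swaps averaged both calls of P114 over CMT-U229 were lost (COL1A2 at adjusted p = 0.0942, COL3A1 at 0.0548), as was COL3A1 in P114 over CMT-U335 (0.0521). The list's medians were 0.28, 0.17 and 0.03. Of 15 growth factors and receptors that decorin binds, 4 were measured, and VEGFA alone was called, at 0.73 ± 0.08 SE in P114 over CMT-U335. EGFR, ERBB2 and ERBB4 had mean ratios between -0.02 and 0.32 in the 3 pairs. In the pairs with CMT-U229 limma called 0 of the 4, with 2 at an unadjusted p under 0.05 for P114 over CMT-U229 and 0 for CMT-U229 over CMT-U335, and 0 in both with a dye term. The shares called over all genes were 7.30% in P114 over CMT-U229 and 17.3% in CMT-U229 over CMT-U335. The medians of that list were 0.13, 0.29 and 0.06.

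Of other mesenchymal markers and transition factors 3 of 22 were measured. S100A4, a calcium-binding protein of motile cells, was lower in CMT-U229 than in both other lines, with 1.54 ± 0.08 SE for P114 over CMT-U229 and -1.57 ± 0.19 for CMT-U229 over CMT-U335. Between P114 and CMT-U335 it stood at -0.23 ± 0.17 SE and was not called. FN1, which encodes the matrix protein fibronectin, was higher in P114 than in CMT-U335 (1.18 ± 0.19 SE). TCF4 was not called in any pair. So 1 of the 3 was higher and none lower in P114 over CMT-U335 and in P114 over CMT-U229, and 1 was lower in CMT-U229 over CMT-U335. Limma called 7.89% and 3.32% of all genes higher in P114 over CMT-U335 and P114 over CMT-U229, and 8.58% lower in CMT-U229 over CMT-U335. The medians of this list were 0.07, 0.83 and -0.12.

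Counted over the set, 4 of the 6 genes were called lower and none higher in P114 than in CMT-U335, where 22.3% of all genes were called 14.4% were lower and 7.89% higher. CMT-U229 over CMT-U335 had 4 lower and 1 higher, against 17.3% called over all genes (8.58% lower, 8.77% higher). P114 over CMT-U229 had 2 higher and 1 lower, against 7.30% called (3.32% higher, 3.98% lower). With the swaps averaged the counts were 3, 4 and 0 of 6, against 16.0%, 7.82% and 1.51% of all genes, in P114 over CMT-U335, CMT-U229 over CMT-U335 and P114 over CMT-U229. With a dye term they were 4, 6 and 1 of 6 in the same order of pairs, against 20.9%, 16.1% and 5.99%. The same sign on all 5 arrays was seen for 4 genes in P114 over CMT-U335, 5 in P114 over CMT-U229 and 5 in CMT-U229 over CMT-U335, where 32.5%, 18.4% and 28.7% of all genes had it. The genes were chosen with results of these data known, so these shares describe them and do not test them. EFEMP1 and CCDC80 were called in each of the 3 pairs, as were 94 of 5246 genes (1.79%).

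The pairs share lines, and their direct and indirect ratios could be set against each other. For P114 over CMT-U335, CCDC80 was at -2.05 directly and at -2.23 through CMT-U229. FBLN2 was at -0.84 and -1, ZEB1 at -0.91 and -0.73, EFEMP1 at -0.63 and -0.75, DCN at 0.19 and 0.09 and VIM at -0.33 and -0.61. The difference was within 0.29 for all 6 and was not called for any (limma, adjusted p = 1.00 each, n = 15 arrays). Over all genes 0 of 5246 were called, and 17 (0.324%) had an unadjusted p under 0.05, none of them among the 6, nor was any called probe by probe. Such a threshold would pass a larger share by chance, so these p-values ran high. The lack of calls therefore does not show that direct and indirect ratios are equal. The intervals were wide, from -0.75 to 1.10 for CCDC80 and from -0.23 to 0.80 for VIM.

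Placed on one scale by the fit of the loop, the order of the lines for CCDC80 was CMT-U335, P114 and CMT-U229, with every step called in the loop fit. FBLN2 had the same order. ZEB1 was ordered CMT-U335, CMT-U229 and P114, and the step between CMT-U229 and P114 was not called (P114 over CMT-U229 at -0.23 ± 0.08 SE; limma, adjusted p = 0.0651). EFEMP1 was ordered CMT-U229, CMT-U335 and P114, with every step called. For DCN P114 and CMT-U335 did not differ beyond their spread (0.15 ± 0.15 SE; limma, adjusted p = 0.487) and both lay above CMT-U229. VIM was higher in CMT-U335 than in the other lines in this fit (P114 over CMT-U335 at -0.42, adjusted p = 0.00913; CMT-U229 over CMT-U335 at -0.48, adjusted p = 0.00469), whereas P114 and CMT-U229 were not told apart (adjusted p = 0.833). The loop fit takes all 15 arrays as separate samples, and it called 1757, 1056 and 1445 genes where the fits by pair called 1169, 383 and 910.

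Likeness of pattern was described by the cosine of the 15 array ratios, which share lines and may share RNA. Within the set FBLN2 and CCDC80 were most alike, at 0.965, and CCDC80 ranked 3rd among 5244 genes for FBLN2. DCN and EFEMP1 ran most nearly opposite, at -0.794. Over all genes CCDC80 was closest to ING3 (0.997), COL4A1 (0.978) and NMI (0.977). ING3, of a chromatin complex, had mean ratios of -1.69, 0.76 and -2.52 in P114 over CMT-U335, P114 over CMT-U229 and CMT-U229 over CMT-U335, beside -2.05, 1.14 and -3.36 for CCDC80. COL4A1, of basement membrane collagen, stood at -0.79, 0.69 and -1.43.

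FBLN2 was closest to HSPBAP1 (0.981) and NMI (0.971), with CCDC80 next. ZEB1 was closest to HIBADH (0.972), SULF2 (0.971) and ACTR10 (0.969). HIBADH encodes an enzyme of valine breakdown and had ratios of -1.63, -0.37 and -1.09. SULF2, which removes sulphate from heparan sulphate outside the cell, stood at -0.86, -0.09 and -0.54, close to ZEB1 itself. EFEMP1 was closest to ALDH9A1 (0.967), ELAVL1 (0.947) and TXNRD1 (0.945). The cosine takes no account of size. ALDH9A1 had ratios of -0.35, -1.26 and 1.01, whereas ELAVL1 (-0.19, -0.28 and 0.13) and TXNRD1 (-0.05, -0.54 and 0.3) changed less. For DCN the nearest genes were less alike: LRRC8C (0.892), PGM2 (0.884) and the laminin gene LAMA3 (0.880).

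Markers of the labelled cell types were checked beside these genes. All 4 measured epithelial markers (EPCAM, KRT8, KRT18 and DSP) were higher in P114 than in CMT-U335, with a median of 2.97, where 7.89% of all genes were called higher. With the swaps averaged 3 of these 4 calls held, and that of DSP (0.57 ± 0.15 SE) was lost. Of the same 4 genes, 2 were higher in P114 than in CMT-U229, and 3 were higher in CMT-U229 than in CMT-U335 (medians 0.94 and 1.29). The shares of all genes called higher there were 3.32% and 8.77%. EPCAM, KRT8 and KRT18 were higher in both lines than in CMT-U335, opposite to ZEB1, FBLN2 and CCDC80, which were lower in both. The part of the epithelial markers in that result was not tested. Of 4 measured bone markers, SPP1 (osteopontin; 4.12 ± 0.18 SE) and SPARC (0.56 ± 0.17) were higher in P114 than in the osteosarcoma line CMT-U335, and COL1A2 was lower. SPARC lost that call with a dye term (limma, adjusted p = 0.0855), with scale normalization (adjusted p = 0.0639), with the swaps averaged (adjusted p = 0.102) and without replicate 2 (0.39), 3 (0.65), 4 (0.54) or 5 (0.55). P114 over CMT-U229 had 2 bone markers higher (SPARC at 1.33 ± 0.21 SE and COL1A2). Both of those calls were lost with the swaps averaged (limma, adjusted p = 0.114 for SPARC and 0.0942 for COL1A2). CMT-U229 over CMT-U335 had SPP1 higher (2.58 ± 0.34 SE) and COL1A2 lower. The medians of the bone list were 0.37, 1.68 and -0.36.

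MYLK was the one myoepithelial marker called of 3 measured, lower in P114 than in CMT-U229 (-2.03 ± 0.10 SE) and higher in CMT-U229 than in CMT-U335 (2.22 ± 0.07), with list medians of 0.22, -0.37 and 0.27. Of 6 leukocyte markers CD14 alone was called, in P114 over CMT-U335 (0.36 ± 0.10 SE) and P114 over CMT-U229 (0.50 ± 0.07), with medians of 0.05, 0.00 and 0.06. In P114 over CMT-U335 it lost the call without replicate 2 (0.36), 3 (0.38), 4 (0.28) or 5 (0.33), and also with scale normalization (adjusted p = 0.0589) or with a dye term (adjusted p = 0.0763), and in both pairs with the swaps averaged (limma, adjusted p = 0.0959 and 0.0611). None of 4 endothelial and 7 muscle markers was called by limma in any pair, with or without a dye term. At an unadjusted p under 0.05 this left 0 of 4 endothelial markers in each pair and 2, 0 and 0 of 7 muscle markers. Of all 5246 genes, limma called 22.3%, 7.30% and 17.3% in P114 over CMT-U335, P114 over CMT-U229 and CMT-U229 over CMT-U335. In the same order 1751, 1000 and 1514 genes had an unadjusted p under 0.05. With lists this short, the lack of calls is not read as a result about these cell types. Median ratios stayed between -0.02 and 0.07 for endothelial and between -0.06 and 0.05 for muscle markers. Ratios between lines do not show whether a marker is absent from all of them.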

How the data were processed

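Total RNA of 3 dog mammary tumour lines was copied into cRNA with T7 polymerase and labelled with a cyanine dye, per the labels' protocols. The deposited values are log2 ratios of the dyes on each array, after a normalization by the authors that the design text mentions but does not describe. The sources used here name neither the numerator nor the base of the logarithm. Base 2 was taken since the largest absolute value, 12.4, would exceed a scanner's range as a natural log. Array medians lay between -0.00671 and 0.0133. The platform annotation gave 1 symbol to 7694 of 22176 probes, several to 0 and none to 14482, and 7340 of these symbols were brought up to date by Entrez identifier (RefSeq, UU_Cfam_GSD_1.0). Arrays were turned to the order of their titles by their dyes, probes of a gene were averaged, and a gene needed values on at least 3 of 5 arrays.

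The 5 arrays of a pair were fitted with limma 3.58.1 (R 4.3.3), testing the mean against 0, in place of the SAM test that the series design names. Loop closure and dye effect were fitted over all 15 arrays. The tests were run first on simulated arrays with known changes and independent noise on each array. There the fits by pair without a dye term were tried only on genes without a dye effect. The simulation therefore does not cover arrays that share RNA, nor dye effects in the main fits. The members, the lists of related genes and markers and the swaps were chosen with earlier results of these data known. Named genes are the members, up to 2 called genes per list, pair and direction, and the 3 most alike genes of each called member. Other genes of the lists were named after their values were seen.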

Additional observations from a re-analysis of the deposited data

Results flagged for a closer look

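EFEMP1 in P114 over CMT-U229 had 1 array far from the others: replicate 4 read -0.91, where the other 4 read -2.03 to -1.71. The gap was 0.711 of the whole range, just past Dixon's 95% limit for 5 values. Of 39 sets of 5 arrays looked at (the 6 genes and the 7 probes of VIM, ZEB1 and DCN in 3 pairs), 1 passed this limit, and chance passes about 1 in 20. Without that array the mean was -1.90 and the call held.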

How the results depend on the processing

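Of 12 called ratios of members, the direction held under every alternative run. Centring, scale normalization and both filters on missing values changed no call of a member. The VIM ratio of P114 over CMT-U229, near 0, changed sign with the loop fit (0.054), array weights (0.04), without replicates 2 and 5 (0.094), with probe 2180 alone (0.014) and without replicate 5 (-0.12 to 0.07 with 1 array left out). The loop closure of DCN (-0.10, probe 16064) and the dye effects of ZEB1 (-0.04, probe 14870) and DCN (0.003, probe 16064) changed sign for single probes, none called.

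For P114 over CMT-U229 the count of members called went to 1 with a dye term, with array weights, at an adjusted p of 0.01, by probe and without replicates 2 and 5, to 0 with the swaps averaged, and to 1 to 2 with 1 array left out. Over all genes, 314 were called with a dye term and 477 with array weights in that pair, beside 383 in the main fit. Genes called in P114 over CMT-U335 numbered 1757 in the loop fit and 642 at 0.01. In P114 over CMT-U229 they numbered 650 with pair means over all arrays, 1056 in the loop fit, 79 with the swaps averaged, 164 without replicates 2 and 5, 159 at 0.01, 578 at 0.1 and 202 to 408 with 1 array left out. In CMT-U229 over CMT-U335 they numbered 1445, 410 (swaps averaged), 328 (without replicates 2 and 3), 470 at 0.01 and 571 to 863 with 1 array left out. Tested probe by probe, 2289, 754 and 1826 of 22176 probes were called in these 3 pairs, which are not counts of genes.

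Same-numbered arrays of different pairs showed no steady shared deviation, with 3 of 15 correlations over 0.1 and a range from -0.249 to 0.331. Dye effects were not removed beforehand, and RNA of CMT-U229 shared between its pairs would make the correlation negative. Whether arrays of the same number share RNA is therefore not settled. The fit with the replicate number as a block pooled all 15 arrays and called 1172, 515 and 920 genes, against 1362, 650 and 1040 in the pooled fit without the block. Between these fits the block ended the calls of EFEMP1 in P114 over CMT-U335 (limma, adjusted p = 0.0620 with it, 0.0349 without) and of FBLN2 in P114 over CMT-U229 (0.0698 with it, 0.0430 without), and changed no other call of a member. VIM in CMT-U229 over CMT-U335 was called in both (0.0190 with it, 0.00809 without), unlike in the fit of its pair alone. Without spot intensities, distance from background is unknown.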
